A study of Mus musculus with 8 samples.

Results

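The genes described here are 4 CLK kinase genes (Clk1, Clk2, Clk3 and Clk4) and 6 SR splicing factor genes (Srsf2, Srsf3, Srsf5, Srsf6, Srsf7 and Srsf11), picked by symbol from the 55213 symbols of the count tables. All 10 were found and all 10 passed the minimum of 10 counts over the 8 libraries, as did 26900 genes in all. Each library holds whole-retina RNA of a different germ-free (GF) male C57B1/6 mouse, raised without any microbes and killed at 15 weeks of age. Libraries DS13, DS15, DS16 and DS19 are from GF-HFD mice, which ate a high-fat diet with 23% saturated fat for 8 weeks from 7 weeks of age. Libraries DS09, DS10, DS11 and DS12 are from GF-ND mice, which ate a normal diet over the same weeks. A whole retina mixes photoreceptors, other neurons, glia and vessels, and in such bulk RNA fewer cells of a type cannot be told apart from less RNA per cell.

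SR proteins bind exons of the precursor RNA and recruit the spliceosome, and they carry a tail rich in arginine and serine. The CLK kinases phosphorylate that tail, which releases SR proteins from nuclear speckles and sets their activity. Both families are known for transcripts that keep an intron or an extra exon with a stop codon, so that part of their RNA stays in the nucleus or is degraded. In CLK1, retention of the introns around exon 4 holds back a pool of RNA that can be spliced later, as is known from mouse and human cells.

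These 10 genes were put together with results of the same diet comparison in view, because gene models taken to be intronic had lower fitted levels in GF-HFD retinas. Their fold changes are therefore given as a description, with no test of single genes, and counts of calls among them stand only beside the share called in the whole table. Of 1857 tested models of the annotation class TEC (models still awaiting experimental proof), 1499 had a lower fitted level in GF-HFD retinas and 358 a higher one. The median of their log2 fold changes (log2FC, GF-HFD relative to GF-ND) was -0.50, against -0.03 over all genes tested. Whether TEC models as a class lie in introns was not checked.

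The annotation lists transcripts with a retained intron for every one of the 10 genes. In GENCODE vM21 on GRCm38, Clk1 (chromosome 1, 58410189 to 58424066, minus strand) has 13 transcripts, of which 1 is coding, 7 retain an intron and 2 are targets of nonsense-mediated decay. Clk4 (chromosome 11, 51261730 to 51281766, plus strand) has 14 transcripts, of which 4 are coding and 7 retain an intron. Srsf11 (chromosome 3, 158010473 to 158036639, minus strand) has the most, with 11 of its 19 transcripts in the retained-intron class. Srsf2 (chromosome 11, 116849901 to 116853094, minus strand) and Srsf6 (chromosome 2, 162931528 to 162937121, plus strand) have 1 each. Clk2 (chromosome 3, 89164795 to 89176921, plus strand), Clk3 (chromosome 9, 57750624 to 57765860, minus strand) and Srsf3 (chromosome 17, 29032628 to 29043373, plus strand) have 4 each. Srsf5 (chromosome 12, 80945504 to 80950507, plus strand) and Srsf7 (chromosome 17, 80200080 to 80207307, minus strand) have 3 each. A reference coding transcript was taken for each gene, with 86 introns in all. A retained-intron transcript spans 21 of them from end to end, in 9 of the 10 genes, and 12 of the 21 are in CLK genes. For Srsf11 none of its 12 introns is spanned whole.

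All 4 CLK genes have 13 exons in the reference transcript, and in all 4 both intron 3 and intron 4, the introns on either side of exon 4, are covered by a retained-intron transcript. Intron 4 is short, with 276 to 391 bases. Its splice sites are shown because they mark the stretch that a retained transcript keeps and the counts cannot separate. Capitals mark the GT that opens the intron and the AG that closes it, and each sequence is given in the direction of transcription with its GRCm38 position. Donor sites have 3 exon and 6 intron bases, acceptor sites 20 intron and 3 exon bases.
Clk1 intron 4 donor, chr1:58420115-58420123, minus strand: gatGTatag
Clk2 intron 4 donor, chr3:89169700-89169708, plus strand: gatGTacaa
Clk3 intron 4 donor, chr9:57758621-57758629, minus strand: gatGTacag
Clk4 intron 4 donor, chr11:51273166-51273174, plus strand: gatGTatag
Clk1 intron 4 acceptor, chr1:58419731-58419753, minus strand: taattattcctcttttttAGatg
Clk2 intron 4 acceptor, chr3:89170029-89170051, plus strand: cctactttctttcgtttcAGatg
Clk3 intron 4 acceptor, chr9:57758348-57758370, minus strand: cagcttcttctttctcacAGatg
Clk4 intron 4 acceptor, chr11:51273540-51273562, plus strand: ctttctctcccttactttAGatg
The 4 donors share their opening letters gatGTa, and the 4 acceptors share their closing letters AGatg. Intron 3 is longer, with 694 to 2100 bases.

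Among the SR genes, Srsf5 intron 5 is covered by 3 retained-intron transcripts, Srsf7 intron 3 by 2 and Srsf3 intron 3 by 1. The annotation does not show whether an intron was retained in these retinas. The sites of these 3 introns were picked with the fold changes known. They are from genes with a lower mean in GF-HFD retinas (Srsf5 and Srsf7) and without one (Srsf3).
Srsf5 intron 5 donor, chr12:80947863-80947871, plus strand: cagGTttgt
Srsf7 intron 3 donor, chr17:80205256-80205264, minus strand: cagGTattt
Srsf3 intron 3 donor, chr17:29038622-29038630, plus strand: cagGTactt
Srsf5 intron 5 acceptor, chr12:80949075-80949097, plus strand: cataattgtcttgtgttaAGgat
Srsf7 intron 3 acceptor, chr17:80204385-80204407, minus strand: ttttctaacttaaaaaatAGgtc
Srsf3 intron 3 acceptor, chr17:29040755-29040777, plus strand: tttactgtttctgcttctAGatc
Counts per gene sum reads over every annotated exon, so a read in a retained stretch counts for the gene. The share of merged exon length that lies outside coding transcripts was 77.9% in Clk1, 66.9% in Srsf3 and 62.2% in Clk4, and 23.2 to 60.6% in the other 7. Clk1 and Clk4 had the lowest fold changes of the 10 genes and Srsf3 the highest. The part of retained introns in the fold changes was not tested.

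The libraries held 41769598 to 44357518 counts in GF-HFD mice and 39258006 to 44025087 in GF-ND mice. Markers of retinal cells were present in every library. Rod markers summed to 58631 to 72438 CPM in GF-HFD libraries, 33133 CPM in GF-ND DS11 and 52328 to 60595 CPM in the other GF-ND libraries. Marker sums are relative to the library's total counts alone, while the CPM of single genes are also TMM-scaled. DS10 and DS12 had the lowest sums of 3 further retinal lists, those of Mueller glia, ganglion cells and microglia, but not of the cone, bipolar and amacrine cell lists. Mueller glia markers summed to 3353 to 3566 CPM in GF-HFD libraries, 3038 CPM in GF-ND DS10, 2851 CPM in DS12, and 3598 and 3552 CPM in DS09 and DS11. Ganglion cell markers summed to 613 to 669 CPM in GF-HFD libraries, 565 CPM in GF-ND DS10, 514 CPM in DS12, and 614 and 644 CPM in DS09 and DS11. Microglia markers summed to 25.0 to 40.7 CPM in GF-HFD libraries, 23.0 CPM in GF-ND DS10, 19.1 CPM in DS12, and 28.3 and 35.5 CPM in DS09 and DS11. Cone markers summed to 1107 to 1322 CPM in GF-HFD libraries and 1225, 1491, 730 and 1303 CPM in GF-ND DS09, DS10, DS11 and DS12. Bipolar cell markers summed to 1224 to 1377 CPM in GF-HFD libraries and 1342, 1329, 1246 and 1381 CPM in those GF-ND libraries. Amacrine cell markers summed to 618 to 669 CPM in GF-HFD libraries and 627, 623, 713 and 568 CPM in the same GF-ND libraries. None of the markers in these lists was at 0 in any library. DS11 and DS19 stood apart. The 10 lens markers took 5.28% of the counts in GF-ND DS11, 0.99996% in GF-HFD DS19 and 0.0151 to 0.145% in the other 6, and none of the 10 was at 0 in any library. Fold changes of the 10 genes are therefore also given without DS11, and without DS10, the library highest in 9 of them. Calls are also given without both DS11 and DS19. Red blood cell markers summed to 16.3 to 36.03 CPM in GF-HFD libraries and 6.68 to 13.2 CPM in GF-ND libraries, without overlap, with none of the 5 at 0. Pigment epithelium markers summed to 36.4 to 496 CPM in GF-HFD libraries, 1367 CPM in GF-ND DS11 and 61.0 to 109 CPM in the other GF-ND libraries. Fibroblast and muscle markers summed to at most 119 and 31.8 CPM in GF-HFD and 115 and 6.01 CPM in GF-ND libraries, and 1 of 6 fibroblast and 2 of 5 muscle markers were at 0 in some library. The part of lens RNA, of other non-retinal RNA or of these cell types in the results was not tested.

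Clk1, the family's best studied kinase, had a lower mean in GF-HFD retinas. Its level was 195, 177, 211 and 204 CPM in GF-HFD DS13, DS15, DS16 and DS19, against 243, 351, 181 and 320 CPM in GF-ND DS09, DS10, DS11 and DS12. The 3 GF-ND libraries other than DS11 all lay above every GF-HFD library, while DS11 lay among them. This gave a log2FC of -0.48 (SE 0.18, n = 4 each), and -0.62 (SE 0.11) without DS11 and -0.34 (SE 0.17) without DS10.

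Clk4, the paralog of Clk1, had the lowest fold change of the 10 genes. It had 79.5, 71.4, 78.4 and 76.1 CPM in GF-HFD DS13, DS15, DS16 and DS19, against 99.8, 139.9, 73.1 and 126.9 CPM in GF-ND DS09, DS10, DS11 and DS12. The libraries lay in the same pattern as for Clk1, with DS11 inside the GF-HFD range. The fit gave a log2FC of -0.53 (SE 0.17), and -0.67 (SE 0.10) without DS11 and -0.39 (SE 0.16) without DS10.

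Clk3, a kinase also known from testis and sperm, averaged 60.3 ± 4.19 CPM on the high-fat diet and 77.2 ± 20.8 CPM on the normal diet (SD, n = 4 each). The 4 GF-HFD libraries ran from 54.8 to 63.7 CPM, and the GF-ND libraries were at 73.4 in DS09, 96.0 in DS10, 49.5 in DS11 and 90.0 CPM in DS12. DS11 was the lowest of all 8. The log2FC was -0.36 (SE 0.18), and -0.51 (SE 0.09) without DS11 and -0.24 (SE 0.18) without DS10.

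Clk2, a kinase also known as a regulator of liver glucose production, had the smallest difference of the 4 kinases. It averaged 41.7 ± 3.91 CPM on the high-fat diet and 50.3 ± 10.5 CPM on the normal diet (SD, n = 4 each). Here too DS11 was lowest, at 37.7 CPM, and DS09, DS10 and DS12 lay above all GF-HFD libraries. This gave a log2FC of -0.27 (SE 0.14), and -0.38 (SE 0.10) without DS11 and -0.15 (SE 0.13) without DS10.

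**Figure D1:**
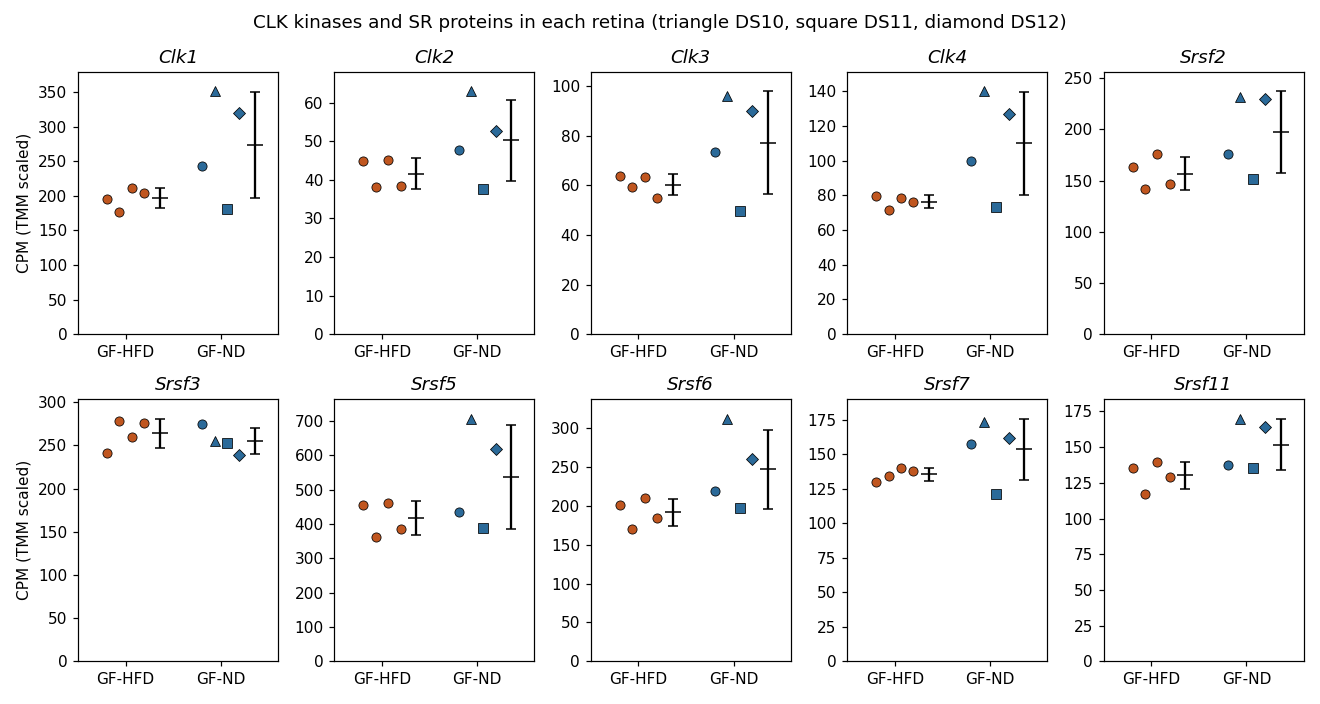
TMM-scaled CPM (y axes, from 0) of the 4 CLK and 6 SR genes in each GF-HFD and GF-ND library (x axes), with the mean and SD of 4 libraries as a bar. The triangle (DS10) is the highest point in every panel but that of Srsf3, and the square (DS11) lies at or below the highest GF-HFD point in all 10.

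Srsf5, an SR protein known to respond to insulin and to nutrients, was the most counted of the 10. It had 456, 364, 462 and 386 CPM in GF-HFD DS13, DS15, DS16 and DS19, against 434, 707, 388 and 620 CPM in GF-ND DS09, DS10, DS11 and DS12. Only DS10 and DS12 lay above the GF-HFD libraries, and DS09 lay inside their range. The fit gave a log2FC of -0.37 (SE 0.19), and -0.49 (SE 0.15) without DS11 and -0.21 (SE 0.17) without DS10.

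Srsf6, an SR protein that binds exonic splicing enhancers, had 200.5, 170.5, 210.1 and 184.2 CPM in GF-HFD DS13, DS15, DS16 and DS19. In GF-ND DS09, DS10, DS11 and DS12 it had 219, 312, 196 and 260 CPM. DS09, DS10 and DS12 were above all GF-HFD libraries, and the log2FC was -0.37 (SE 0.14), with -0.46 (SE 0.11) without DS11 and -0.24 (SE 0.12) without DS10.
Srsf2, also called SC35 and used as the classical marker of nuclear speckles, had 163, 142, 176 and 146 CPM in GF-HFD DS13, DS15, DS16 and DS19, against 176, 231, 151 and 230 CPM in GF-ND DS09, DS10, DS11 and DS12. DS09 and DS16, 1 of each diet, were nearly level, and DS10 and DS12 stood above all others. The log2FC was -0.33 (SE 0.14), and -0.43 (SE 0.11) without DS11 and -0.25 (SE 0.15) without DS10.

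Srsf11 and Srsf7 had smaller differences. Srsf11, a protein of nuclear speckles that binds the U2AF splicing factor, had 135, 117, 139 and 129 CPM in GF-HFD DS13, DS15, DS16 and DS19, against 137, 170.0 and 164 CPM in GF-ND DS09, DS10 and DS12 and 136 CPM in DS11. Its log2FC was -0.22 (SE 0.10), with DS10 and DS12 alone above the GF-HFD libraries. Srsf7, an SR protein with a zinc knuckle, averaged 136 ± 4.54 CPM on the high-fat diet and 154 ± 22.3 CPM on the normal diet (SD, n = 4 each), with DS11 lowest of all 8 at 121 CPM, and its log2FC was -0.18 (SE 0.11). Without DS11 both values were -0.27 (SE 0.09 for Srsf11 and 0.06 for Srsf7), and without DS10 they were -0.17 (SE 0.10) for Srsf11 and -0.12 (SE 0.11) for Srsf7.

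Srsf3, the smallest SR protein, which links splicing to RNA export, did not share this pattern. It had 241, 279, 260 and 276 CPM in GF-HFD DS13, DS15, DS16 and DS19, against 274, 255, 253 and 238 CPM in GF-ND DS09, DS10, DS11 and DS12. The groups overlapped over most of their range. This gave a log2FC of 0.05 (SE 0.08) with and without DS11, and it was -0.01 when only genes with at least 10 CPM in at least 4 libraries were fitted.

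**Figure D2:**
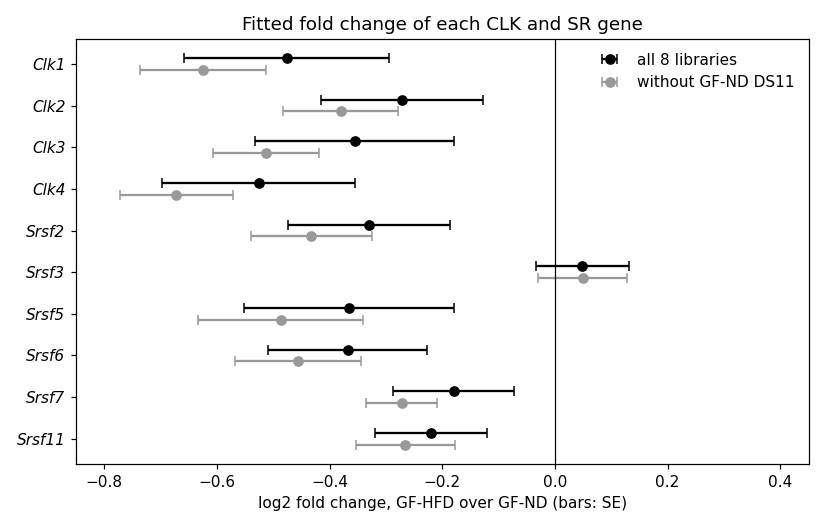
Log2FC (x axis, GF-HFD relative to GF-ND) with its SE as a bar for each of the 10 genes (y axis), from all 8 libraries in black and without GF-ND DS11 in grey. The values run from -0.53 for Clk4 to 0.05 for Srsf3, whose sign was turned (-0.01) by the filter at 10 CPM.

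Of the 10 genes, 9 had a lower fitted level in GF-HFD retinas, against 53.7% of all genes tested and 39.1% of the 10355 genes with a mean of at least 10 CPM. Their median log2FC was -0.34, against -0.03 over all genes and 0.04 over those 10355. Over the 17 settings, that with all 8 libraries included, the 9 kept this sign and Srsf3 was lower in 1. No gene of the 10 had every GF-HFD library below every GF-ND library, which 2.54% of all genes did (1.48% of those with at least 10 mean CPM). In 6 of the 10, all 3 GF-ND libraries other than DS11 were above every GF-HFD library, and in 3 further genes this held for DS10 and DS12 alone. In the refit without DS11, scaling factors were computed anew. There 8 of the 10 had every GF-HFD library below every remaining GF-ND library, against 10.5% of all 26338 genes at any level. The library left out was the lowest GF-ND library in 9 of the 10. At an adjusted p under 0.05 edgeR called 0 genes in the whole table (0% of 26900, smallest adjusted p = 0.649 in edgeR) and so none of the 10. At an unadjusted p under 0.05 it called 1985 genes, with 4.53% of all genes lower (3.54% of those with at least 10 mean CPM) and 2.85% higher, and 4 of the 10 were among the lower ones. That count was 1 without DS10, DS12 or DS15, 2 without DS13 or DS19, 4 without DS16, 6 without DS09 and 9 without DS11. In the fit without DS11, 6067 of all 26338 genes passed at this unadjusted level, 2890 of them lower. With any other single library left out, 1224 to 1774 genes passed. limma-voom called 0 genes and DESeq2 53 (0.197%), none of them among the 10. Without DS11 edgeR called 421 genes (1.6%) after adjustment, 3 of the 10 among them, and without both DS11 and DS19 it called 55 (0.214%), 1 of the 10 among them. Without any other single library it called 0. Since the diet comparison was used to pick these genes, the counts are read no further.

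The same 2 libraries were highest in most of the 10 genes, while the order below them varied. DS10 had the highest level in 9 of them and DS12 the second highest in 9, in each case all but Srsf3. DS15 had the lowest level in 6, DS11 in 3 and DS12 in Srsf3 alone. The summed level of the 10 genes was 1709, 1552, 1786 and 1632 CPM in GF-HFD DS13, DS15, DS16 and DS19, against 1862, 2498, 1587 and 2264 CPM in GF-ND DS09, DS10, DS11 and DS12. The GF-ND retinas thus spread over a wider range than the GF-HFD retinas. For the 10 genes the median SD of log2 CPM was 0.11 among GF-HFD libraries and 0.31 among GF-ND libraries, and 9 of 10 had the larger SD in GF-ND. Over the 4794 tested genes in the same range of mean level the medians were 0.08 in GF-HFD and 0.17 in GF-ND, and 87.7% had the larger SD in GF-ND. A wider spread among GF-ND libraries was thus common in the table.

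**Figure D3:**
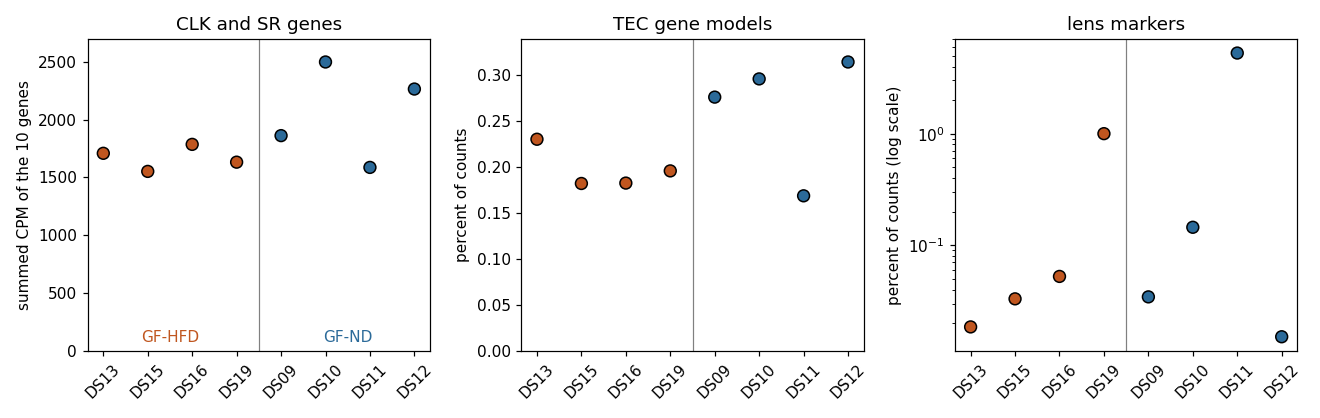
Summed CPM of the 10 genes, percent of counts in TEC gene models and percent in 10 lens markers (y axes, the last on a log scale) in each library (x axes), with GF-HFD in orange and GF-ND in blue. GF-ND DS09, DS10 and DS12 are highest in the first 2 panels, and GF-ND DS11 is highest only in the lens panel.

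The share of counts in the 3128 TEC models of the tables was set beside the summed level of these genes. It was 0.230, 0.182, 0.182 and 0.196% in GF-HFD DS13, DS15, DS16 and DS19, against 0.276, 0.296, 0.169 and 0.314% in GF-ND DS09, DS10, DS11 and DS12. Within GF-HFD the orders differed, with DS16 highest in summed level and DS13 highest in TEC share. DS10 led in summed level and DS12 in TEC share. The same 3 GF-ND libraries, DS09, DS10 and DS12, were highest in both measures, and DS11 had the lowest TEC share of all 8. Malat1, an abundant RNA of nuclear speckles, did not follow them, with 589 to 1558 CPM in GF-HFD libraries, 941 CPM in GF-ND DS10, and 2055, 1613 and 2515 CPM in GF-ND DS09, DS11 and DS12. Mitochondrial genes took 2.66 ± 0.423% of counts in GF-HFD and 2.62 ± 0.660% in GF-ND libraries (SD, n = 4 each), and DS10 and DS12, the highest libraries for the CLK and SR genes, had the lowest and the highest share (1.90 and 3.47%). The part of RNA quality or of unspliced RNA in the diet differences was not tested.

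Levels can be compared between genes only per length, and were divided by the length of merged exons in kb (RPKM). Srsf5 stood first, at 105 ± 12.4 RPKM in GF-HFD and 135 ± 37.9 RPKM in GF-ND retinas (SD, n = 4 each). Srsf2, Srsf6, Srsf7 and Srsf3 followed, with 53.0, 39.8, 38.2 and 33.4 RPKM in GF-HFD and 66.6, 51.3, 43.2 and 32.3 RPKM in GF-ND retinas. Clk1 was the most abundant kinase, with 24.2 ± 1.82 RPKM in GF-HFD and 33.7 ± 9.46 RPKM in GF-ND retinas. Below it, with their GF-HFD means, came Srsf11 (15.4 ± 1.12 RPKM), Clk4 (13.2 ± 0.619 RPKM), Clk2 (7.86 ± 0.738 RPKM) and Clk3 (7.14 ± 0.495 RPKM). In GF-ND retinas these genes had 17.97 ± 2.11, 18.96 ± 5.12, 9.49 ± 1.99 and 9.14 ± 2.46 RPKM. Neighbours in this order whose libraries overlapped within GF-HFD were Srsf6 with Srsf7 and Clk2 with Clk3. Within GF-ND, only Srsf5 with Srsf2, Clk1 with Srsf11 and Clk4 with Clk2 were apart. With exons of coding transcripts alone as the length, Clk1 moved from place 6 to place 2 (131 in place of 28.9 RPKM over all 8 libraries) and Srsf3 to place 3. Only the length was changed and the counts still held reads outside coding transcripts, so these values are no levels of coding RNA.

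**Figure D4:**
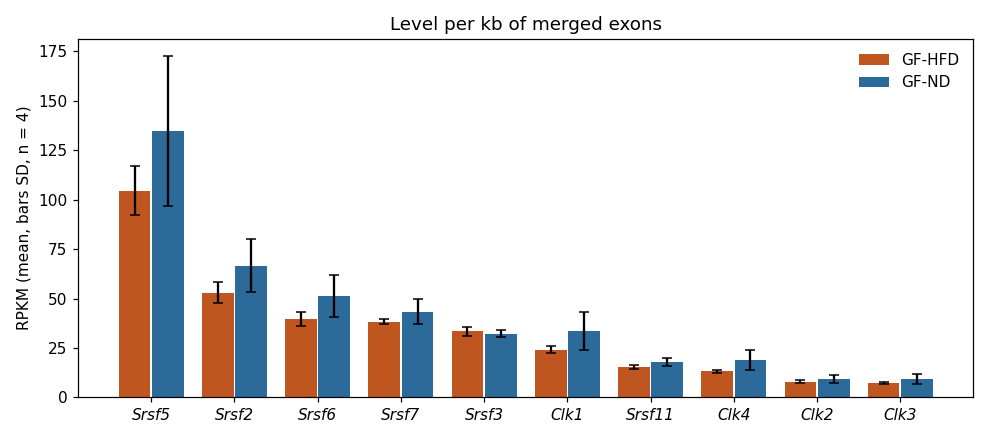
RPKM (y axis, from 0) of the 10 genes (x axis, in order of their level over all 8 libraries) in GF-HFD and GF-ND retinas, as the mean with the SD of 4 libraries. Srsf5 is highest in both diets and Clk2 and Clk3 lowest, at 7.86 and 7.14 RPKM in GF-HFD retinas.

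Other genes overlap the span of 4 of the 10, and a read in shared exon sequence may come from either gene. The strand can separate genes on opposite strands only, and whether it was used in counting is not given in the sources used here. Gm43362, a TEC model inside Srsf11 on the same strand, had 46, 22, 29 and 43 counts in GF-HFD DS13, DS15, DS16 and DS19 and 46, 41, 16 and 77 counts in GF-ND DS09, DS10, DS11 and DS12. It shares 0 exon bases with Srsf11, and its log2FC was -0.39 (SE 0.45, edgeR adjusted p = 0.830). Gm25082, a small noncoding RNA model within Clk4, had 48 to 98 counts per GF-HFD library and 64 to 125 per GF-ND library (log2FC -0.54, SE 0.30, edgeR adjusted p = 0.669), and it shares 59 exon bases with Clk4. BC049762, which overlaps the span of Clk4 on the other strand and shares 0 exon bases with it, had at most 11 counts (log2FC -0.11, SE 0.97).
On the opposite strand, Mettl23 and Mfsd11 share 460 and 288 exon bases with Srsf2, and the decapping factor Edc3 shares 1284 with Clk3. Their log2FC values were -0.06 (SE 0.10), -0.09 (SE 0.12) and 0.10 (SE 0.08). None of these 6 overlapping genes was called by edgeR at an adjusted p under 0.05, nor at an unadjusted p under 0.05.

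The remaining SR proteins had a median closer to that of all genes. Of 7 such genes, 6 had a lower fitted level in GF-HFD retinas (median log2FC -0.10, against -0.03 over all genes), and 0 were called by edgeR, limma-voom or DESeq2 after adjustment. At an unadjusted p under 0.05 edgeR had 1 of 7 lower, Tra2a, which activates exons together with SR proteins. It had 199, 181, 189 and 185 CPM in GF-HFD DS13, DS15, DS16 and DS19, against 216, 276, 177 and 248 CPM in GF-ND DS09, DS10, DS11 and DS12 (log2FC -0.28, SE 0.13). DS10 and DS12 were again the highest. With DS11 left out 3 of the 7 passed, in a fit where 6067 of 26338 genes passed, and with any other library left out none did.
Of 9 other kinases of splicing factors, 5 were lower and 4 higher (median -0.03, and -0.08 to 0.05 over the settings tried), with 0 called by the 3 tools and 0 at an unadjusted p under 0.05 in edgeR. Srpk2, an SR kinase enriched in brain and the highest of the list, averaged 203 ± 9.63 CPM on the high-fat diet and 210 ± 27.0 CPM on the normal diet (SD, n = 4 each). Without DS11 edgeR called 1 of the 9 lower, the kinase Prpf4b of the spliceosome (log2FC -0.34, SE 0.07, edgeR adjusted p = 0.0455).

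Proteins of nuclear speckles were, by their median, the list nearest to the CLK and SR genes. Of 22, 20 had a lower fitted level in GF-HFD retinas (median log2FC -0.20, and -0.31 to -0.16 over the settings tried). edgeR, limma-voom and DESeq2 called 0 after adjustment, and edgeR had 7 lower and 0 higher at an unadjusted p under 0.05, where 4.53% of all genes were lower. With 1 library left out, 1 passed without DS15, 2 without DS10 or DS19, 3 without DS12, 4 without DS13, 5 without DS16, 7 without DS09 and 17 without DS11. In the fit without DS11, 6067 of all 26338 genes passed, 2890 of them lower. Pnisr, a speckle protein with an arginine and serine-rich stretch, had 287, 237, 294 and 245 CPM in GF-HFD DS13, DS15, DS16 and DS19, against 351, 503, 263 and 404 CPM in GF-ND DS09, DS10, DS11 and DS12 (log2FC -0.52, SE 0.18). Only DS11 of the GF-ND libraries lay within the GF-HFD range. Pnn, a speckle protein that is also found at cell junctions, had a log2FC of -0.37 (SE 0.13). Luc7l3, which acts with the U1 particle at the donor site, had one of -0.40 (SE 0.14).
Without DS11, edgeR called 7 of the 22 at an adjusted p under 0.05, all lower, in a fit that called 421 genes (1.6%), 360 of them lower. They were Pnisr, Nktr, Luc7l3, Rbm5, Ccnl1, Ccnl2 and Pnn, with log2FC values from -0.65 (SE 0.12) for Pnisr to -0.44 (SE 0.08) for Rbm5. The smallest edgeR adjusted p was 0.0241, for Ccnl1, a cyclin of speckles. Without both DS11 and DS19, Ccnl1 alone was called (edgeR adjusted p = 0.0498).

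Proteins of the spliceosome itself did not share the lower levels. Of 31 core proteins, 24 had a higher fitted level in GF-HFD retinas and 7 a lower one (median log2FC 0.10, and 0.03 to 0.13 over the settings tried). Of the 10355 genes with a mean of at least 10 CPM, 6309 had a higher fitted level as well (median log2FC 0.04). The 3 tools called 0, and edgeR had 2 higher at an unadjusted p under 0.05, beside 534 of those 10355 genes. In either direction 0 passed without DS15 and 6 without DS10, where 1315 of 26348 genes in the whole table passed. The U2 subunit Sf3b4 had 34.1, 36.2, 34.5 and 34.5 CPM in GF-HFD DS13, DS15, DS16 and DS19, against 30.8, 32.0, 28.3 and 27.3 CPM in GF-ND DS09, DS10, DS11 and DS12, without overlap (log2FC 0.23, SE 0.08). The Sm protein Snrpd1 had a log2FC of 0.25 (SE 0.09), also without overlap, though the groups nearly touched. Its lowest GF-HFD library was DS16 at 35.25 CPM, and its highest GF-ND library was DS09 at 35.20 CPM. Every GF-HFD library lay above every GF-ND library in 472 of the 10355 genes with a mean of at least 10 CPM. Snrnp70, the U1 protein that binds SR proteins, went the other way and was picked out after its values were seen. It had 431, 350, 413 and 360 CPM in GF-HFD DS13, DS15, DS16 and DS19, against 484, 774, 312 and 661 CPM in GF-ND DS09, DS10, DS11 and DS12 (log2FC -0.52, SE 0.23). Without DS11 edgeR called it alone of the 31 (log2FC -0.71, SE 0.14, edgeR adjusted p = 0.0397).

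Of 25 hnRNP and PTB proteins, which often act against SR proteins, 11 were lower and 14 higher (median 0.01, and -0.05 to 0.04 over the settings tried, so its sign depends on the setting). The 3 tools called 0, and edgeR had 1 lower at an unadjusted p under 0.05, Hnrnph1. It averaged 530 ± 28.1 CPM on the high-fat diet and 640 ± 95.7 CPM on the normal diet (SD, n = 4 each). Of the 25, 0 passed without DS10, DS12, DS15 or DS16, and 10 without DS11, where 6067 of 26338 genes in the whole table passed. Without DS11 edgeR called the RNA-binding protein Pcbp1 higher (log2FC 0.38, SE 0.08, edgeR adjusted p = 0.0440).
Of 16 proteins of the exon junction and of nonsense-mediated decay, which degrades transcripts with an early stop, 4 were lower and 12 higher (median 0.06, and -0.0021 for those that reached 10 CPM in at least 4 libraries). Of the 10355 genes with a mean of at least 10 CPM, 6309 were higher. The 3 tools called 0, and edgeR had 1 in each direction at an unadjusted p under 0.05. With 1 library left out it had 1 to 5 in all, the most without DS11, where 6067 of 26338 genes in the whole table passed. Smg1, the kinase that phosphorylates the decay factor Upf1, had a log2FC of -0.28 (SE 0.12), and Eif4a3, the helicase of the exon junction, of 0.24 (SE 0.08). Eif4a3 had 62.2, 72.2, 64.0 and 68.5 CPM in GF-HFD DS13, DS15, DS16 and DS19, against 58.6, 59.3, 56.1 and 52.7 CPM in GF-ND DS09, DS10, DS11 and DS12, without overlap. Such a higher level without overlap held for 472 of the 10355 genes with a mean of at least 10 CPM. In the other lists 1 kinase was higher, and 1 speckle gene and 1 hnRNP gene lower, without overlap.

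**Figure D5:**
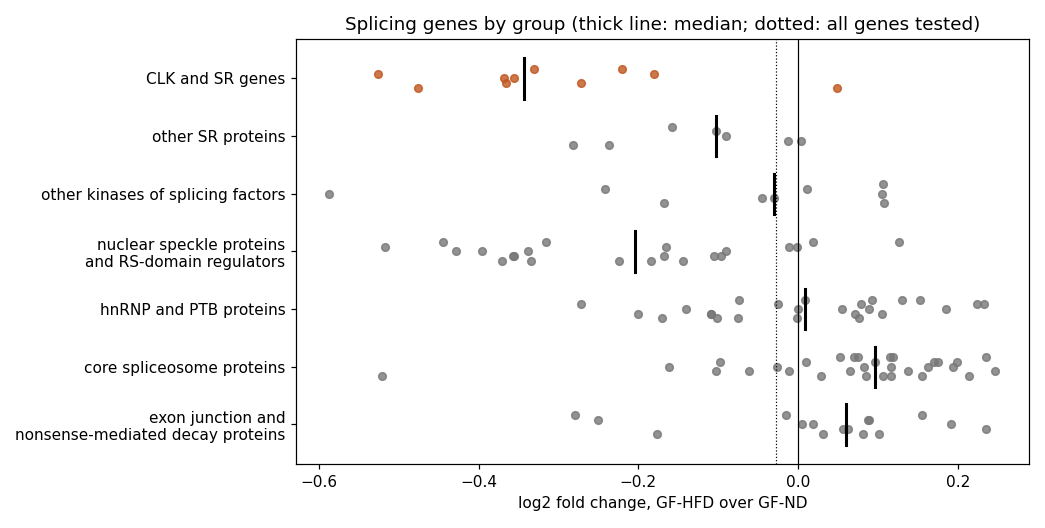
Log2FC (x axis, GF-HFD relative to GF-ND) of the 10 CLK and SR genes and of 6 lists of other splicing genes (y axis), 1 point per gene, with the median of each as a thick line and that of all genes tested as a dotted line. Medians run from -0.34 for the CLK and SR genes to 0.10 for core spliceosome proteins, and edgeR called none of these genes after adjustment over the table.

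The profile of Clk1 over the libraries was nearest to those of genes with varied roles, Clk4 among them. Likeness was taken as the root mean square difference, over the 8 libraries, of log2 CPM centred on each gene's mean, among the other 10354 genes with a mean of at least 10 CPM. The 5 nearest to Clk1 were Mapk1ip1 (0.04), the mitochondrial myosin Myo19 (0.05), Clk4 (0.05), the tubulin folding factor Tbce (0.06) and the zinc finger protein Zkscan3 (0.07), all in log2 units. The 5 nearest to Clk4 were the U1 splicing factor Prpf39 (0.05), Clk1 (0.05), Gm12940 (0.06), the polymerase III factor Gtf3c2 (0.07) and Myo19 (0.07). Clk1 and Clk4 were thus among each other's nearest genes, in places 2 and 3. Srsf3 was far from both, in place 4537 for Clk1 (0.39) and 4563 for Clk4 (0.39). The rest of the CLK and SR genes lay between, from place 62 (Clk3) to 620 (Srsf11) for Clk1. For Clk4 they lay from place 41 (Clk3) to 680 (Srsf11). Clk2 was in place 188 for Clk1 and 195 for Clk4. These distances rest on 8 libraries that differ in their lens share and are given with no test.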

How the data were processed

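Per the paper's methods and the labels, read pairs of 100 bp were mapped to GRCm38 (STAR 2.4.2). Subread 1.4.6-p1 (featureCounts) then gave reads for each GENCODE vM23 gene, and the authors deposited these raw counts, 1 table per library. The strand setting is not given in the sources used here. Genes with a total of at least 10 counts were kept and TMM-scaled, and GF-HFD was set against GF-ND in edgeR 4.0.16 (R 4.3.3, quasi-likelihood test), with Benjamini-Hochberg adjustment over all genes tested. The SE is the log2 fold change (log2FC) divided by the square root of F. Log2 CPM used a prior count of 2. Positions, transcripts, lengths and sequences are from GENCODE vM21 on GRCm38, where 53528 symbols were found. RPKM was computed from the scaled CPM. The fit was also run on simulated data, with planted changes larger than those of the 10 genes and no lens-rich library. That run therefore does not bear on differences of the size seen here. Alternatives were RLE factors, library totals, 3 other filters, DESeq2 1.42.0, limma-voom (limma 3.58.1), each library left out, and both lens-rich libraries left out.

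The genes and lists were chosen with earlier results of these data known. From each list of other splicing genes the text names up to 3 genes per direction at an unadjusted p under 0.05, or the highest gene where there was none. For the 10 genes, every overlapping model that was tested is named, and for Clk1 and Clk4 the 5 nearest profiles. Genes called only without DS11 were picked out after their values were seen. Library totals of 39258006 to 44357518 counts gave 1582 to 28719 counts per library for each of the 10 genes, so counting error is small beside the spread between libraries. Each library is from a different mouse, per the paper.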

Additional observations from a re-analysis of the deposited data

Results flagged for a closer look

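In groups of 4 libraries, the highest or lowest value was looked at where its gap to the next as a share of the range exceeded Dixon's 95% critical value, which chance gives in about 1 of 20 groups. None of the 20 groups of CPM values of the CLK and SR genes met this. The share of counts in 10 lens markers did in both diets, with 0.99996% in GF-HFD DS19 against 0.0185 to 0.0525% in the other GF-HFD libraries, and 5.28034% in GF-ND DS11 against 0.0151 to 0.145% in the other GF-ND libraries. DS11 had the lowest level of the GF-ND libraries for 9 of the 10 genes and DS12 for Srsf3, while DS19 had the lowest level of no gene over all 8 libraries.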

How the results depend on the processing

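The median log2 fold change of the 10 genes was -0.34, and from -0.44 (without GF-ND DS11) to -0.23 (without GF-ND DS10) with 1 library left out. Without GF-ND DS10 the log2 fold change was -0.15 for Clk2, -0.21 for Srsf5 and -0.24 for Srsf6, each over 1.5 times smaller than with all 8 libraries. The 160 fold changes of single genes under alternatives each moved by less than 1 SD between libraries. Leaving out a single library can hardly move a group mean by that much, so for those settings this bound says little. Genes called at an adjusted p under 0.05 in the whole table numbered 0 in edgeR, 53 in DESeq2, 55 without both lens-rich libraries, and 0 to 421 with 1 library left out, the highest without GF-ND DS11. Left-out libraries gave 0 to 7 calls among the speckle proteins (1 without both lens-rich libraries), and 0 to 1 among the other kinases, the hnRNP and PTB proteins and the core spliceosome proteins. The cause was not tested. No paired analysis was possible because the library numbers are not shared between the diets. Depth did not limit the 10 genes, but counts per gene cannot separate retained introns from spliced RNA.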
